A study of Drosophila melanogaster with 4 samples.

Results

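The NK homeobox cluster at 93DE, on the right arm of chromosome 3 (3R) of Drosophila melanogaster, was examined for trimethylation of histone H3 at lysine 27 (H3K27me3). Every enriched region that overlapped the window 3R:17200000-17330000 by at least 1 bp was taken, in Release 5 coordinates of the fly genome, the build named in the file headers. This window of 130 kb stands for the cluster of tin, bap, lbl, lbe, C15 and slou. It was overlapped by 3 regions in each of 3 deposited lists, 9 regions of 5224 in all. The lists held 1486 regions in ChIP replicate 1, 1459 in ChIP replicate 2 and 2279 in a list of the whole series, called the series list below.

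The material was whole embryos of the wild-type strain Oregon-R, 14 to 16 h old, which carried no transgene or mutant allele per the labels. Chromatin cross-linked with formaldehyde was precipitated with an antibody to H3K27me3 in 2 ChIP samples, and each had an input sample with the same replicate number. There was 1 stage and 1 genotype, so no condition was compared with another. The labels do not say whether the replicates came from separate embryo collections, so the spread between them may be technical. A whole embryo mixes all tissues, and a high enrichment in every cell cannot be told apart from a higher one in part of the cells. The sequencing depth behind the lists is unknown. All tissue terms below are therefore background on the genes, and no tissue marker could be checked in these lists.

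H3K27me3 is the mark written by the Polycomb repressive complex PRC2, and its broad domains in fly chromatin typically cover genes of developmental transcription factors. Such genes are held silent by Polycomb in the cells that do not use them, and the mark is lower or absent where they are active. The NK cluster is an ancient group of homeobox genes, many of which give identities to cells of the mesoderm. Most of its members at 93DE are known for a chain of tasks in mesoderm and muscle. The gene tin (tinman) is needed for the heart and the visceral muscle, and bap (bagpipe), which tin activates, for the visceral muscle of the midgut. The pair lbe and lbl (ladybird early and ladybird late) sets the identity of a subset of heart cells and of single body wall muscles. The gene slou (slouch) marks founder cells of particular body wall muscles, and C15 (clawless) acts in the distal leg.

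In the Release 6 gene table all 6 symbols were found, and their order along 3R is tin, bap, lbl, lbe, C15, slou. Another 6 protein-coding genes and 6 long non-coding RNA genes are listed from tin to slou. Between bap and lbl are Ugt49B2, CG7907, CheB93a and CheB93b. Fancm, the fly member of a family of DNA repair helicases, is the only protein-coding gene listed between lbe and C15, and sp3 the only one between C15 and slou. The gene mod(mdg4), which encodes chromatin proteins, is listed just before tin, and CG15498 and InR, the insulin receptor, just after slou. This table was used for names, order and the length of stretches between genes. It was not used for positions, since its coordinates belong to another build. No gene was therefore placed on a region, and which member lies under which region was not tested. In that table the stretch from tin to slou, and that from tin to C15, is longer than the window. By those lengths the window is too short to hold all 6 genes whole, and its values describe only part of the cluster. The first region past its end is therefore described too.

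H3K27me3 was called over most of the window, as 3 broad regions with 2 gaps. The left region covered 30.01 kb in replicate 1 (17202852 to 17232861) and 30.08 kb in replicate 2 (17202748 to 17232826). The middle region covered 74.3 kb in both, with ends at 17233685 and 17308031 in replicate 1 and at 17233833 and 17308136 in replicate 2. It alone took up 57.2% of the window in each replicate. The right region covered 32.5 kb in both, from 17313728 to 17346251 and from 17313721 to 17346230. It ran 16.3 kb and 16.2 kb past the end of the window, so the rule cuts through it. The series list had the same 3 regions, at 17202783 to 17232912, 17233693 to 17308133 and 17313674 to 17346280.

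**Figure D1:**
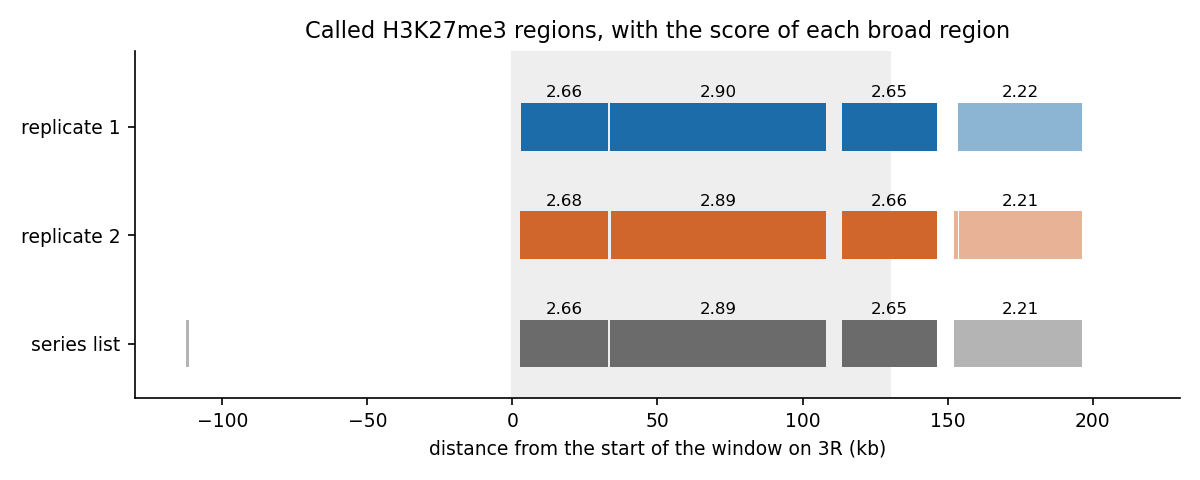
Regions of the 3 lists by distance in kb from the start of the window (grey shading), dark for regions that overlap the window and pale for others nearby, with the score over each broad region. The same 3 broad regions appear in all lists, and the bar to the right of the window follows after a further gap.

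In bases, 92.79% of the window was called in replicate 1 and 92.82% in replicate 2, or 92.8% ± 0.018 (SD, n = 2), and 92.998% in the series list. Over the whole arm 3R the called share was 12.6% in replicate 1, 13.0% in replicate 2 and 15.2% in the series list. The window was thus called 7.34 and 7.15 times as densely as its arm in the replicates. It held 3.42% and 3.33% of all called bases of 3R. The 6 major arms, 2L, 2R, 3L, 3R, X and 4, were cut into 923 windows of the same length, counted from the first base of each arm. The median window had 0.747% of its bases called as a mean of the replicates, and 409 windows had none. As large a share as in the window of the NK cluster was found in 10 of the 923, of which 4 lay on 3R. The bases of the rule's window were not among these 10, since the partition split them over neighbouring windows. One of these, 17160133 to 17290133, was called over 66.5% in replicate 1 and 66.4% in replicate 2, and the other, 17290134 to 17420134, over 71.6% and 72.5%. The window of the cluster was placed with its calls known, so the count only describes where it stands.

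**Figure D2:**
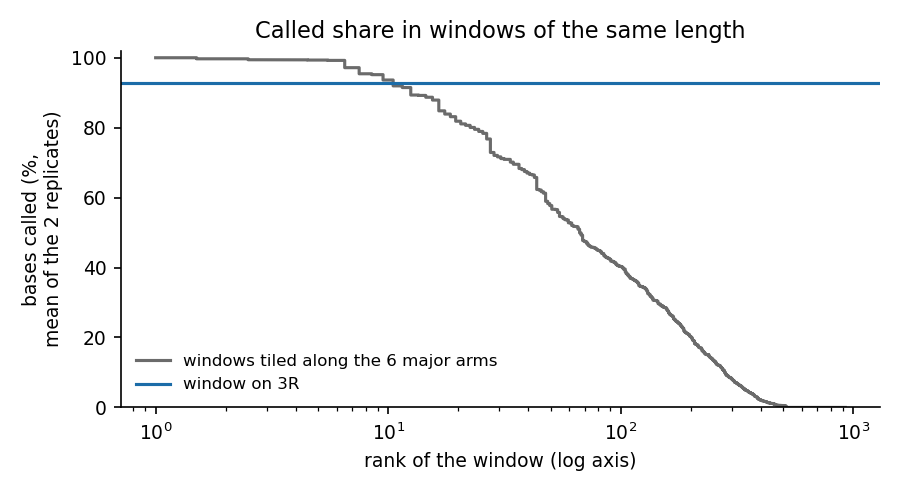
Called share in percent (mean of the 2 replicates) of 923 windows tiled along the 6 major arms, against their rank on a log axis, with a line at the 92.8% of the window on 3R. The 10 highest windows reach the line.

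Each region carries a score, a positive number from the authors whose scale neither the labels nor the file headers state. It is used below to rank regions within their own list. The middle region scored 2.90 in replicate 1, 2.89 in replicate 2 and 2.89 in the series list. The left region scored 2.66, 2.68 and 2.66 in the same lists, and the right region 2.65, 2.66 and 2.65. The middle region was above both others in every list, by 0.243 and 0.258 in replicate 1 and by 0.214 and 0.230 in replicate 2. The left region was above the right one by 0.0148 in replicate 1 and 0.0153 in replicate 2, a small difference with the same sign in both. Each of these regions scored higher in replicate 2 than in replicate 1, the left by 0.0160 and the right by 0.0155. With 2 replicates the order of left and right was not tested.

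By score the middle region ranked 9 of 1486 in replicate 1 and 5 of 1459 in replicate 2, and it was the highest-scoring region of 3R in both. In the series list it ranked 11 of 2279, and 3 regions of 3R were above it. What stood above it was narrower. Of the 8 regions above it in replicate 1, 7 were on 2R and 3 were under 3 kb wide, and the widest had 42.4 kb. The 4 regions above it in replicate 2 also reached at most 42.4 kb. Among regions from 0.5 to 2 times its own width the middle region ranked 2 in every list. These numbered 86 in replicate 1, 89 in replicate 2 and 103 in the series list. Among regions of at least 50 kb it ranked 1 in every list, of 61 in replicate 1, 63 in replicate 2 and 74 in the series list. The median score of these wide regions was 2.18 in replicate 1 and 2.19 in replicate 2. The next of them scored 2.83 in replicate 1, a 67.1 kb region of 3R from 647211 to 714285, and 2.82 in replicate 2, a 71.1 kb region of X from 8500478 to 8571589. The lead of the middle region over these was 0.0735 and 0.0689. That is larger than the 0.0126 by which its own score differed between the replicates, and close to the upper quartile of such differences over all matched broad regions (0.0791, below). This order was not tested.

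The flanking regions of the window ranked lower but also scored above the median of regions of their size. The left region was number 31 in replicate 1 and 26 in replicate 2, and the right region number 33 and 28. Regions from 0.5 to 2 times the width of the left region numbered 170 in replicate 1 and 181 in replicate 2, with median scores of 1.70 and 1.67, and the left region ranked 18 among them in both. For the right region the medians were 1.73 and 1.73, and it ranked 20 of 164 and 19 of 172. Only 27 of the 300 regions of at least 10 kb in replicate 1, and 25 of 311 in replicate 2, scored at or above the lowest of the window's regions.

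**Figure D3:**
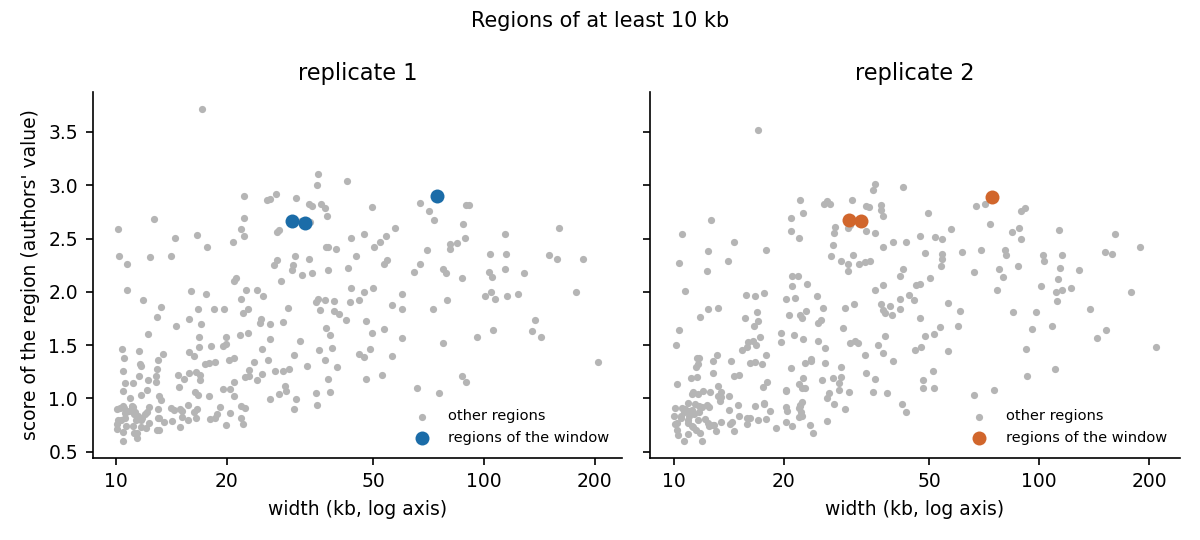
Score (authors' value) against width in kb on a log axis for all regions of at least 10 kb in replicate 1 and replicate 2, with the window's 3 regions in colour. The middle region lies above every other region of at least 50 kb.

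The gap between the left and middle regions was short and recurred in all lists. It measured 823 bp in replicate 1, 1006 bp in replicate 2 and 780 bp in the series list. The replicate 1 gap lay wholly within that of replicate 2, and 772 bp, from 17232913 to 17233684, were left uncalled by all 3 lists. The gap between the middle and right regions was longer, at 5696 bp, 5584 bp and 5540 bp, and 5537 bp of it, from 17308137 to 17313673, were uncalled in all. Of the bases in either replicate's gap, 81.8% were shared for the short one and 98.0% for the long one. A gap says only that no region was called over the stretch. Whether reads can be placed there was not tested, and no gene was placed in it.

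Neighbours of at least 25 kb each with less than 10 kb between them numbered 16 pairs in each replicate, and 2 of the 16 were the pairs of the window. The 16 gaps had a median of 1026.5 bp in replicate 1 and 960.5 bp in replicate 2. In replicate 1 the largest, 7490 bp, lay between the right region and a broad region past the window, described below. In replicate 2 a region of 1356 bp broke that pair. Both partners scored at or above the lowest region of the window in 3 pairs of either replicate, which were the window's 2 pairs, by construction, and a pair on X around a gap of 1.22 kb and 1.19 kb (17688079 to 17689293 in replicate 1). The width and distance limits were chosen after the regions were seen.

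The right region was followed by a further broad one outside the window. It began 23.7 kb past the window's end in replicate 1 and 23.9 kb in replicate 2, covered 42.7 kb (17353742 to 17396392) and 42.4 kb (17353884 to 17396323), and scored 2.22 and 2.21. These scores, ranks 81 and 89, were lower than those of the 3 regions inside. The gap before it was 7490 bp in replicate 1. In replicate 2 a region of 1356 bp (17352277 to 17353632, score 0.490) broke it, and the series list had a similar one of 1232 bp (17352312 to 17353543, score 0.305). Replicate 1 had no call there.

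When regions less than 10 kb apart were joined, the window's 3 regions and the one after them made a single chain. It spanned 17202852 to 17396392 in replicate 1, and in replicate 2 it spanned 17202748 to 17396323. It was 193.5 kb and 193.6 kb long, with 92.8% and 93.3% of its length called, from 4 and 5 regions. In the Release 6 table the stretch from tin to slou is shorter than this chain. Whether the chain covers that stretch was not tested. By length the chain ranked 9 of 567 chains in replicate 1 and 11 of 528 in replicate 2. Its length-weighted mean score was 2.65 in replicate 1 and 2.64 in replicate 2, the highest of the 17 and 20 chains of at least 150 kb. Their medians were 1.82 and 1.61. The next chain had 2.34 in replicate 1, on 3L from 12534257 to 12725962, and 2.35 in replicate 2, on X from 4266780 to 4424575. Shorter chains with higher means existed, and the limits of 10 kb and 150 kb were chosen after the regions were seen.

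**Figure D4:**
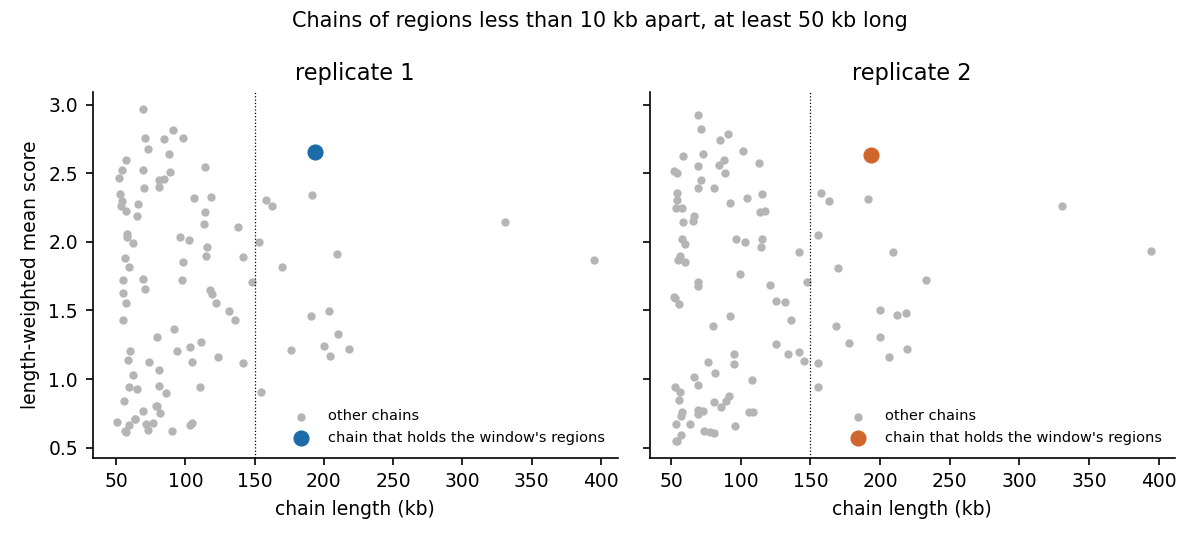
Length-weighted mean score against length in kb for chains of regions less than 10 kb apart and at least 50 kb long, in replicate 1 and replicate 2; the dotted line marks 150 kb. Right of the line the chain with the window's regions is the highest point, at 2.65 and 2.64.

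The chain stood alone on its part of 3R. To the left the nearest region of either replicate ended 296 kb and 295 kb before it, and to the right the nearest began 563 kb and 561 kb after it. In replicate 1 the chain held the only calls in 1.05 Mb, and so did it in replicate 2. Among the chains of at least 50 kb, the distance to the nearer neighbour ranked 10 of 104 in replicate 1 and 6 of 106 in replicate 2, with medians of 40.3 kb and 58.9 kb. In the series list, narrow regions of 1029 bp came closer, 114 kb before the chain (score 0.389) and 262 kb after it (score 0.383). Neither replicate called these.

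The replicates placed the ends of the regions closely. The 6 starts and ends of the window's regions differed by 7 to 148 bp between replicates, with a median of 69.5 bp. Among the 190 pairs of regions of at least 10 kb that overlapped one to one, the median difference was 94.5 bp over 380 ends, with quartiles of 38 and 234 bp. The right region was placed most closely, its starts 7 bp and its ends 21 bp apart. The start of the middle region, at the short gap, differed most, by 148 bp. Its end differed by 105 bp and the start of the left region by 104 bp, so these were above the median of 94.5 bp. Each end of the series list lay within 140 bp of both replicates, and 3 of the 6 lay between them.

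**Figure D5:**
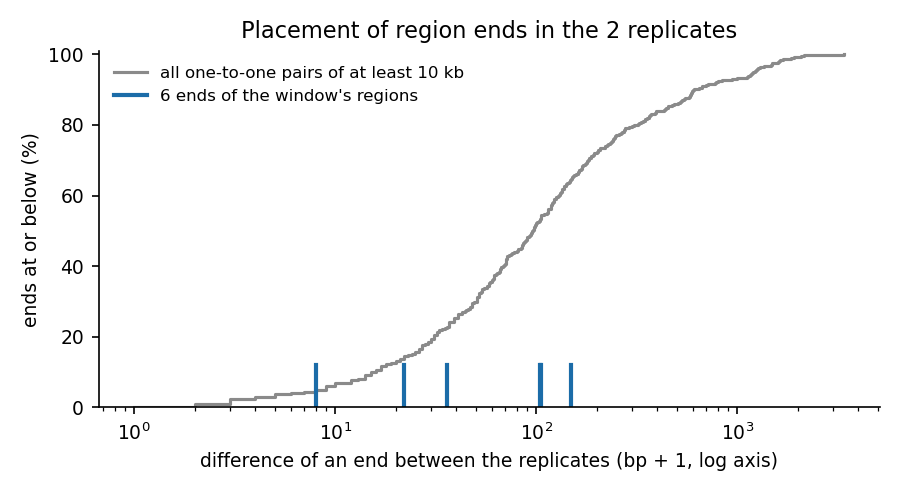
Cumulative share in percent of the 380 ends of one-to-one pairs of at least 10 kb, the window's own included, by their difference between the replicates (bp + 1, log axis), with ticks for the 6 ends of the window's regions. The ticks run up to 148 bp, where the curve has passed its median of 94.5 bp.

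Scores repeated closely too. The 3 regions differed by 0.0160 (left), 0.0126 (middle) and 0.0155 (right) between replicates, each below the lower quartile of 0.0188 for the 190 pairs, whose median was 0.0446 and whose upper quartile was 0.0791. Within the window 120447 bp were called in both replicates and 120846 bp in either, so 99.7% of the called bases were shared and 399 bp were called in one replicate alone. The shared fraction was 87.9% on the whole of 3R, 86.5% on the major arms and 91.1% when only regions of at least 10 kb were kept on the major arms. Of the series list bases in the window, 99.6% were called in both replicates and 98 bp in neither, against 76.5% called in both on the major arms. With 92.79% and 92.82% of the window called in the replicates, most called bases must be shared wherever the calls fall. The arms were called far more sparsely, so these comparisons cannot say whether the window repeated better than the arms. The series list is not independent of the replicates. With 2 replicates and no second group, none of these differences was tested.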

How the data were processed

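H3K27me3 was measured by ChIP-seq in 2 ChIP samples with 2 inputs. The 3 deposited files list enriched regions, one file per ChIP sample and one for the series, with start, end and a score per region as given by the authors. The scale of this score, the caller and its threshold, and how the series list was made, are stated neither in the labels nor in the file headers. Bowtie 0.12.7 is named in the submitters' processing notes, and the build is Release 5 per the file headers. The inputs have no list of their own and were not analysed here. No read counts were used, so depth is unknown and no interval is given.

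Regions were clipped to the window for shares of bases, and overlap was counted from 1 bp. The genes, the window and all lists were chosen with earlier results of these data known. The regions described are all that overlap the window and those nearest on each side. Regions and chains elsewhere are named only for comparison, as the next by score or as the other high-scoring close pair. No test between groups was possible, and values are described against the same measure over whole lists. The planned gene lists and the search of promoter and protein sequences were left out, because neither an annotation of Release 5 nor sequence was used. Alternatives covered a score minimum, merging, the window's width, regions wholly inside the window and each replicate alone. Calculations used Python 3.11.15, numpy 2.4.6, scipy 1.17.1 and matplotlib 3.10.9. The overlap code was checked on 20 simulated pairs of lists and recovered all 20.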

Additional observations from a re-analysis of the deposited data

How the results depend on the processing

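A minimum at the median score of each list changed no region of the window. Counting only regions wholly inside the window left 2 of the 3 in each replicate, since the right region runs past its end. Widening the window by 50 kb on each side lowered its called share to 71.2%, because the uncalled stretch to its left was then included, and the bases shared by the replicates to 98.8%. Merging regions under 1 kb apart joined the left and middle regions in replicate 1 alone, where their gap is 823 bp, and not in replicate 2, where it is 1006 bp. The mean end difference of the middle region between replicates was then 15543 bp, against 126.5 bp as deposited, the shared bases were 99.0% and the mean number of regions 2.5. Merging under 2 kb, added after the data were seen, joined them in both and gave 99.8% shared bases and an end difference of 104.5 bp. The mean score rank of the middle region over the replicates was 7 among all regions, 5.5 among those of at least 10 kb and 1 on 3R. The share of series list bases called was 99.77% for each replicate without the other. Without replicate 1 or without replicate 2 the called share of the window was 92.82% or 92.79%. Counts of windows at or above the share of the rule's window (9, with the tiling shifted by 50% of a window) and the chain's first rank, with joining under 8 or 20 kb, were added after the data were seen and held. No paired analysis was possible because no list of input regions was used, and only inputs share numbers with the ChIP samples. What depth limits was not measured, since it is unknown.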
